A study of Mus musculus with 6 samples.

Results

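Chemokines are small secreted proteins that direct the migration of leukocytes, and the 7 ligands described here are those that T cells are known to make: Ccl1, Ccl3, Ccl4, Ccl5, Ccl20, Xcl1 and Cxcl10. They were chosen by name from the platform annotation. Each of the 7 had 1 probe set, among 18193 genes with a probe set of a single symbol on the array.

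Chemokine ligands act through receptors of the G protein-coupled class on the responding cell, and 1 receptor often binds several ligands. CD4 T cells switch on Ccl3, Ccl4, Ccl1 and Xcl1 when the T cell receptor is engaged, whereas Ccl5 is known as a late product of effector and memory T cells. Cxcl10 is an interferon-induced ligand made by many cell types, and Ccl20 is linked to the Th17 programme.

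Transcripts were measured in mouse CD4 T cells on Affymetrix arrays that read short stretches of each transcript, mostly near the 3' end. Mice of both genotypes were of the C57BL/6 strain, were aged 10 to 11 weeks and carried loxP-flanked Fur alleles, which can be deleted by Cre recombinase. In the knockout group (CD4 cre Fur flox/flox, here Furin cKO) Cre was present under the Cd4 promoter, which is active from thymocyte development onward, so that loss is not limited to the mature cells studied; the control group (Fur flox/flox) lacked Cre. Cells of 3 populations were taken from each genotype: naive CD4+CD62L+CD44- cells activated for 2 days on plates coated with antibodies to CD3 and CD28 at 5 µg/ml each, CD4+CD25+FoxP3+ regulatory cells, and CD4+CD62L-CD44+ memory cells, the last 2 sorted without culture. Each of the 6 groups was 1 array; the sources used here do not give the number of mice behind an array. A genotype difference within a population is therefore a ratio of 2 arrays with no replicate, no SD and no test.

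Several checks of the labels bear on the values that follow. Furin, the targeted gene, read 468 on the Furin cKO and 516 on the control array of activated cells. It read 410 and 547 in regulatory cells, and 2203 and 647 in memory cells, so that the memory pair went against its labels. In activated cells it was 1.10-fold lower and in regulatory cells 1.34-fold lower. In those pairs 26.2% and 13.2% of measured genes were at least as far down, so these falls do not settle the labels there. Where this probe set lies relative to the deleted stretch of the gene is not known here, and a probe set outside it would check nothing. All arrays are called by their labels, and each genotype direction, above all in memory cells, rests on those labels. Foxp3, the transcription factor that defines regulatory T cells, read 33.8 and 50.4 on the Furin cKO and control arrays of regulatory cells, but 1116 and 1358 on those of memory cells, against the label of the sort. Of 6 regulatory cell markers the other 5 read higher on regulatory than on memory arrays: Ctla4, an inhibitory receptor, read 10619 on the Furin cKO and 11033 on the control array of regulatory cells, against 2934 and 3340 on those of memory cells. All 7 T cell markers with a probe set were above the floor on every array. Probe sets that reached the floor made up 49.4% to 49.8% of the activated arrays, 65.8% to 67.4% of the regulatory arrays and 62.6% to 65.2% of the memory arrays. The BioB control probe set read 757.5 on the Furin cKO and 656 on the control array of activated cells. It read 1809 and 2123 in regulatory cells, and 2974 and 4145 in memory cells. Differences between populations and in hybridisation quality cannot be told apart. Signals are MAS5 intensities on a linear scale, and the floor, a signal of 47.6, is the 40th percentile of all probe sets over the 6 arrays; lower signals were set to that value ahead of the log2 step, and a fold against such an array is a lower bound.

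Among the inflammatory CC ligands, Ccl3 (MIP-1 alpha), which attracts macrophages and T cells, was a transcript of the activated cells. It read 5902 on the Furin cKO array and 2649 on the control array of activated cells, 50.9 and 98.5 in regulatory cells, and 292 and 108 in memory cells. Both activated arrays thus lay far above the other 4, and the 2 regulatory arrays were the lowest. The 250 bases before the transcription start in RefSeq (GRCm38.p6, minus strand, chr11:83649379-83649628) are shown because this gene stood out on the activated arrays, and because they held none of the motifs searched on both strands.

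Ccl3 promoter: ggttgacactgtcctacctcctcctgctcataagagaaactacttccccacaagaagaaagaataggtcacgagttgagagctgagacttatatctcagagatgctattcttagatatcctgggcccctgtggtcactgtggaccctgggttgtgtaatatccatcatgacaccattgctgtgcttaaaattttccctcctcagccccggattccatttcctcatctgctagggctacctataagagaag

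The motifs were GGGA and CC set apart by any 4 bases for NF-kB, a pair of GAAA words set apart by any 2 bases for interferon response factors, TGANTCA for AP-1 and TATAAA for the TATA box. They occur in 17.6%, 2.98%, 6.75% and 12.4% of 32851 such windows of 27025 genes, and 5 of the 7 ligands had an entry in the promoter table. The windows of Ccl3 and Xcl1 held none of the 4 motifs, that of Ccl20 held 1 NF-kB match from 81 to 72 bases before the start, and TATAAA was in none of the 5. A match is a description of the letters only.

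Ccl4 (MIP-1 beta), which lies beside Ccl3 on chromosome 11 and shares much of its function, had the same order of populations with smaller steps. It read 2624 on the Furin cKO and 1284 on the control array of activated cells, 130 and 183 in regulatory cells, and 936 and 514 in memory cells. The activated, memory and regulatory pairs did not overlap one another, in that order from high to low.

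Ccl5 (RANTES), a ligand stored and released by effector and memory T cells, was highest in memory cells. It read 455 and 187 on the Furin cKO and control arrays of activated cells, 2489 and 2455 in regulatory cells, and 34172 and 17869 in memory cells. The memory arrays were highest, the regulatory arrays intermediate and nearly equal, and the activated arrays lowest.

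Ccl1, a ligand of Ccr8 that is produced by activated T cells, was dim on all arrays. It read 193 and 57.7 on the Furin cKO and control arrays of activated cells, 12.3 and 117 in regulatory cells, and 237 and 292 in memory cells. The 2 memory arrays were the highest, and the pairs of activated and regulatory cells overlapped. Its promoter (GRCm38.p6, minus strand, chr11:82179813-82180062) is shown beside that of Ccl3 because both read higher in activated Furin cKO cells; the capitals mark an NF-kB match from 196 to 187 bases before the start, overlapped by a match of the other strand from 195 to 186.

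Ccl1 promoter: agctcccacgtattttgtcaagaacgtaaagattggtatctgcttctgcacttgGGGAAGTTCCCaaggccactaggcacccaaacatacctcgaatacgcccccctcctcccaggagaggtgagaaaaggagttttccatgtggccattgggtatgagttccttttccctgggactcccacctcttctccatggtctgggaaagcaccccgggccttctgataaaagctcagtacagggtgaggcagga

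Xcl1 (lymphotactin), the ligand of Xcr1 on cross-presenting dendritic cells, was mainly a memory cell transcript. It read 127 and 17.6 on the Furin cKO and control arrays of activated cells, 52.7 and 59.2 in regulatory cells, and 939.9 and 1642 in memory cells. The memory arrays stood apart from the other 4, and the activated control array was below the floor. Ccl20, the ligand of Ccr6, exceeded the floor on 2 arrays only: it read 91.4 on the Furin cKO and 17.4 on the control array of activated cells, 28.3 and 14.1 in regulatory cells, and 52.7 and 18.2 in memory cells. Its values say little more than that it was close to the background of the array.

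Cxcl10 (IP-10), the interferon-induced ligand of Cxcr3, was the only member below the floor on both activated arrays. It read 36.7 on the Furin cKO and 39.2 on the control array of activated cells, 418 and 427 in regulatory cells, and 749 and 652 in memory cells. The 3 pairs did not overlap, and within each pair the genotypes were close. Its promoter (GRCm38.p6, minus strand, chr5:92348890-92349139) is shown as the contrast to the preceding ones: it held an interferon response match from 213 to 204 bases before the start, NF-kB matches from 159 to 150 and from 103 to 94 (the second on both strands) and an AP-1 match from 74 to 68, all in capitals.

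Cxcl10 promoter: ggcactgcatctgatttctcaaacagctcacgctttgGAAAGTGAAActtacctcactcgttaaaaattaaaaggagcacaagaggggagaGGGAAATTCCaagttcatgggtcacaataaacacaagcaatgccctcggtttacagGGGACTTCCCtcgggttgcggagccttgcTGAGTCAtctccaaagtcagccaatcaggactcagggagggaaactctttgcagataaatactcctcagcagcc

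**Figure D1:**
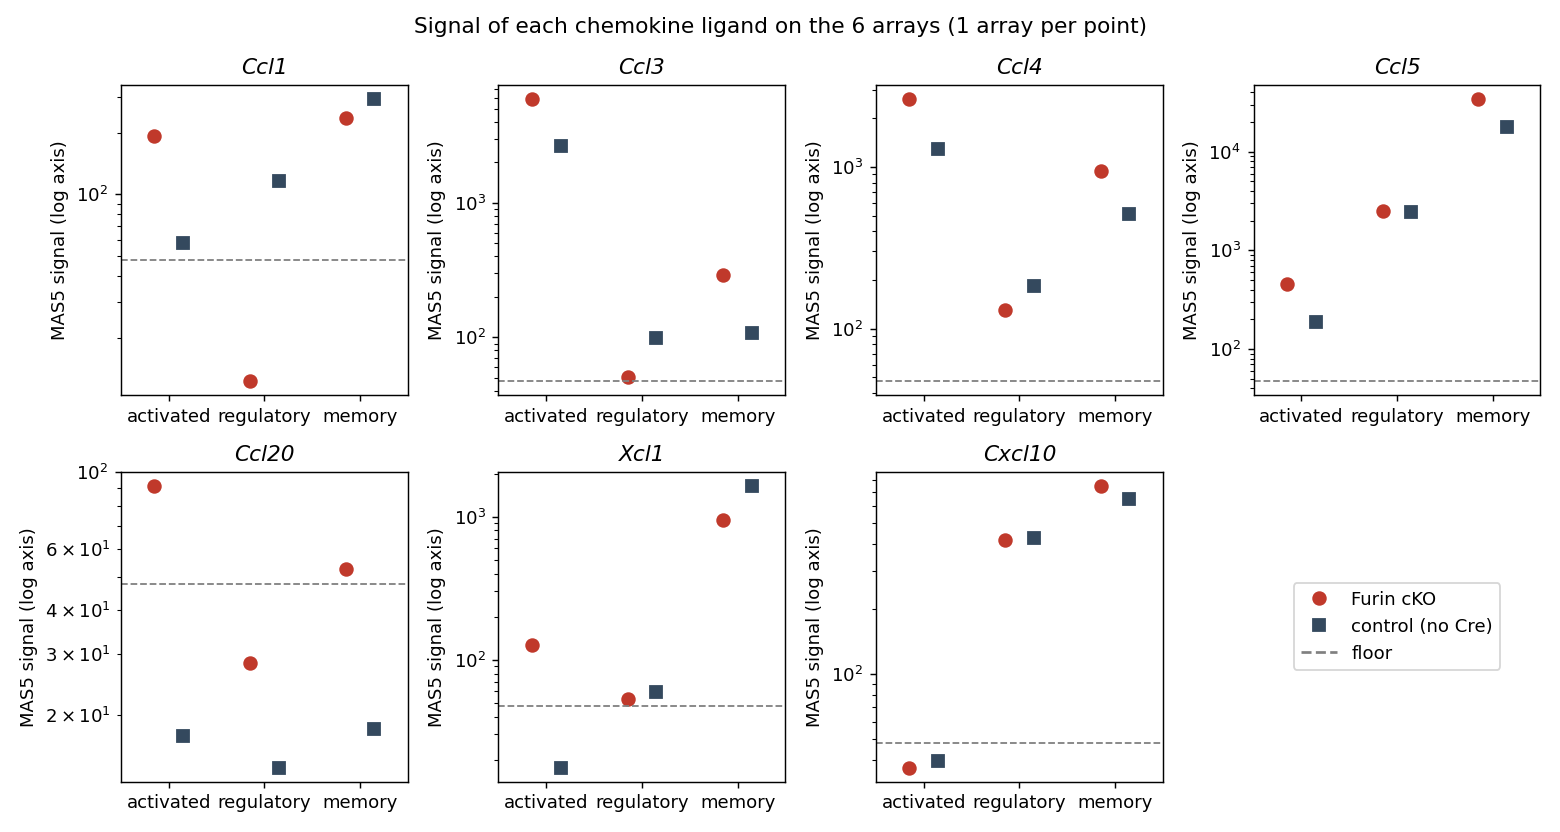
MAS5 signal of the 7 ligands (log axis) by population, with the Furin cKO array as a circle left of the control array as a square and the floor of 47.6 as a dashed line. Ccl3 and Ccl4 were highest on the activated arrays, Ccl5, Xcl1 and Cxcl10 on the memory arrays, and Ccl20 was above the floor on 2 arrays.

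The difference between populations was tested with limma in a model with population and genotype as factors, fitted to all 6 arrays over 15808 genes, with 2 residual degrees of freedom. The 2 genotypes stand in for replicates here, so the adjusted p-values (Benjamini-Hochberg over all genes) measure spread between these arrays and not between animals. In bulk samples fewer expressing cells and less RNA per cell cannot be told apart.

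Activated cells differed from memory cells in opposite ways for different ligands. Ccl3 was higher in activated cells, with a log2 difference of 4.48 ± 0.65 (SE) and an adjusted p of 0.00827, a 22.3-fold difference. Ccl5 was 84.7-fold lower, at -6.40 ± 0.34 and an adjusted p of 0.00196. Cxcl10, below the floor on both activated arrays, was at least 14.7-fold lower (adjusted p = 0.00181), and Xcl1, above the floor on 1 of the 2 activated arrays, was 15.96-fold lower (SE 0.57 on the log2 scale, adjusted p = 0.00804). Ccl4 (1.40 ± 0.43, adjusted p = 0.0603), Ccl1 (-1.32 ± 0.76, adjusted p = 0.25) and Ccl20 (0.40 ± 0.28, adjusted p = 0.327) did not pass. Thus 1 of 7 members was called higher and 3 were called lower, while 17.4% of all genes were called higher and 27% lower (44.4% in all). The share of members called is thus near that of all genes. The median log2 difference of all genes was -0.21.

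Against regulatory cells, in a comparison that shares the activated arrays, 2 ligands were called higher and 2 called lower in activated cells. Ccl3 was 55.8-fold higher in activated cells (log2 difference 5.80 ± 0.65, adjusted p = 0.0048) and Ccl4 11.9-fold higher (3.57 ± 0.43, adjusted p = 0.00553). Ccl5 fell by 3.08 on the log2 scale (SE 0.34, adjusted p = 0.00479), and Cxcl10 was at least 8.87-fold lower (adjusted p = 0.00186). Ccl1, Ccl20 and Xcl1, at log2 differences of 0.50, 0.47 and 0.48, did not pass, and those of Ccl1 and Xcl1 turned negative without the activated Furin cKO array (-0.77 and -0.47). Over all genes 18.1% were called higher, 26.5% lower and 44.7% in all. The median log2 difference of all genes was -0.23.

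Regulatory cells read below memory cells for all 7 ligands, but none passed the threshold. The log2 differences were -4.48 ± 0.57 for Xcl1 (adjusted p = 0.0726), -3.32 ± 0.34 for Ccl5 (adjusted p = 0.0652), -2.17 ± 0.43 for Ccl4 (adjusted p = 0.103) and -0.73 ± 0.15 for Cxcl10 (adjusted p = 0.104). Those of Ccl1, Ccl3 and Ccl20 were -1.82, -1.32 and -0.07. In this comparison limma called 0 of 15808 genes (0%), with a smallest adjusted p of 0.0506, whereas 3358 genes and 4 of the 7 members were under 0.05 before adjustment. Without the genotype term Xcl1 (adjusted p = 0.0308) and Ccl5 (adjusted p = 0.0438) passed.

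**Figure D2:**
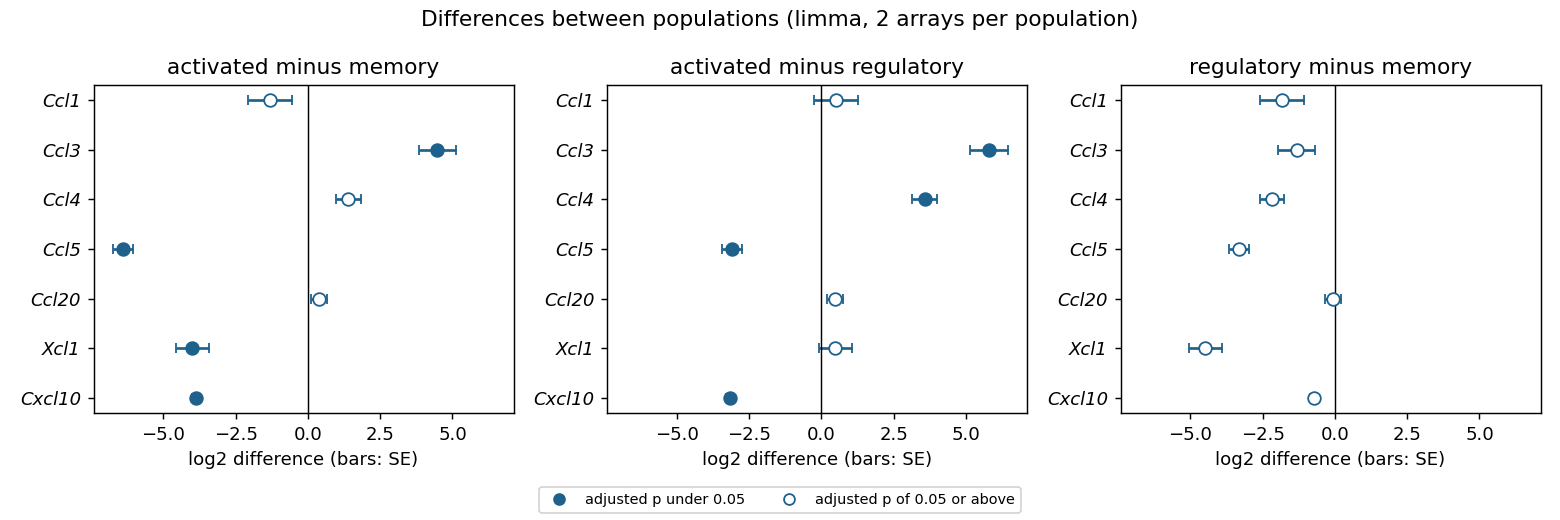
Log2 differences between populations for the 7 ligands with their standard errors (bars), from the limma model on 6 arrays; filled points have an adjusted p under 0.05. Activated cells were higher for Ccl3 and lower for Ccl5 and Cxcl10 in both of their comparisons, and no point is filled for regulatory minus memory cells.

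Fits that left out each array in turn had 1 residual degree of freedom, and in most an arm of 1 array that is assumed to vary like the others, so a lost call there does not show that a difference rests on the array left out. In these fits the activated minus memory calls of Ccl5 (log2 differences from -6.81 to -6.00) and Cxcl10 (from -3.98 to -3.77) passed in 6 of 6 fits. That of Ccl3 passed in 2 of 6, with differences from 3.81 to 5.15 and adjusted p-values of 0.0601 and 0.0735 without the control and Furin cKO arrays of activated cells, and of 0.129 and 0.0805 without those of memory cells. Ccl4, not called with all arrays, passed without either regulatory array, and Ccl1 without the activated Furin cKO array (adjusted p = 0.0488). The call of Xcl1 also passed in 2 of 6, and was lost without either memory array (adjusted p = 0.11 without the control, 0.0649 without the Furin cKO array) or either regulatory array (0.111 and 0.103). Against regulatory cells, Cxcl10 passed in 4 of 6 fits, and Ccl3, Ccl4 and Ccl5 in 1 of 6 each, at adjusted p-values up to 0.0763. Their log2 differences kept their direction, from 4.68 to 6.93 for Ccl3, from 2.85 to 4.29 for Ccl4, from -3.63 to -2.54 for Ccl5 and from -3.21 to -3.08 for Cxcl10; without the regulatory control or the regulatory Furin cKO array limma called 0 genes, with 6348 and 6149 genes under 0.05 before adjustment. With both memory arrays left out, 4 members were still called in activated minus regulatory cells.

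Activated Furin cKO cells read higher than activated control cells for every ligand that could be measured. Of the 4 members above the floor on both arrays, Ccl1 was 3.35-fold higher, Ccl5 2.44-fold, Ccl3 2.23-fold and Ccl4 2.04-fold. Xcl1 was at least 2.67-fold and Ccl20 at least 1.92-fold higher, both being below the floor on the control array, so that they could only be measured by being higher. Of the 6 measured, 5 were at least 2-fold higher, among them all 4 above the floor on both arrays. Of 10756 genes 0.39% passed 2-fold upward and 0.372% downward (0.762% in all). The median log2 ratio of the 6, Xcl1 and Ccl20 included, was 1.22, against -0.005 over all measured genes. Genes with an upward ratio at least as large as that of Ccl4, the smallest of the 4, made up 0.344% of those measured, and for Ccl1 the share was 0.0558%. Cxcl10 was below the floor on both arrays and was not compared.

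Markers of other cells on the activated arrays were mostly below the floor, apart from those of CD8 T cells. Both CD8 markers were above it on both arrays and read higher with Furin cKO, as the ligands did: Cd8a read 73.5 on the Furin cKO and 48.6 on the control array, and Cd8b1 read 129 and 107. Their part in the ligand values was not tested. Of 3 B cell and 5 granulocyte markers 0 were above the floor on either array, 1 of 4 NK cell markers was above it on both, and 4 of 10 myeloid and dendritic cell markers were above it, with summed signals of 671 on the Furin cKO array and 647 on the control array. Beta-actin, whose 3' over 5' signal rises with RNA decay, had ratios of 1.24 on the Furin cKO array and 1.22 on the control array.

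In regulatory cells the ratios of the same ligands did not go up. Ccl1 was at least 2.45-fold lower on the Furin cKO array, Ccl3 1.94-fold lower on an array just above the floor, and Ccl4 1.41-fold lower. Ccl5 and Cxcl10 were within a log2 ratio of 0.02 and -0.03, Xcl1 was at -0.17, and Ccl20 was below the floor on both arrays. Hence 1 of 6 measured members was at least 2-fold lower and 0 were at least 2-fold higher, where 2.12% of 14587 genes passed 2-fold downward and 3.14% upward (5.26% in all).

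In memory cells the array labelled Furin cKO read higher for the CC ligands of the inflammatory group and lower for Xcl1. Ccl3 was 2.71-fold, Ccl5 1.91-fold and Ccl4 1.82-fold higher, and Xcl1 1.75-fold lower. Ccl1 (-0.31) and Cxcl10 (0.20) had small log2 ratios, and that of Ccl20 was a lower bound of 0.15. Of 7 measured members 1, Ccl3, was at least 2-fold higher, where 5.62% of 14235 genes passed 2-fold upward and 3.64% downward (9.26% in all), so the count is close to the background of this pair. Shares of genes with an upward ratio at least as large were 2.23% for Ccl3, 6.44% for Ccl5 and 7.42% for Ccl4. With the memory labels exchanged each of these ratios would turn round.

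**Figure D3:**
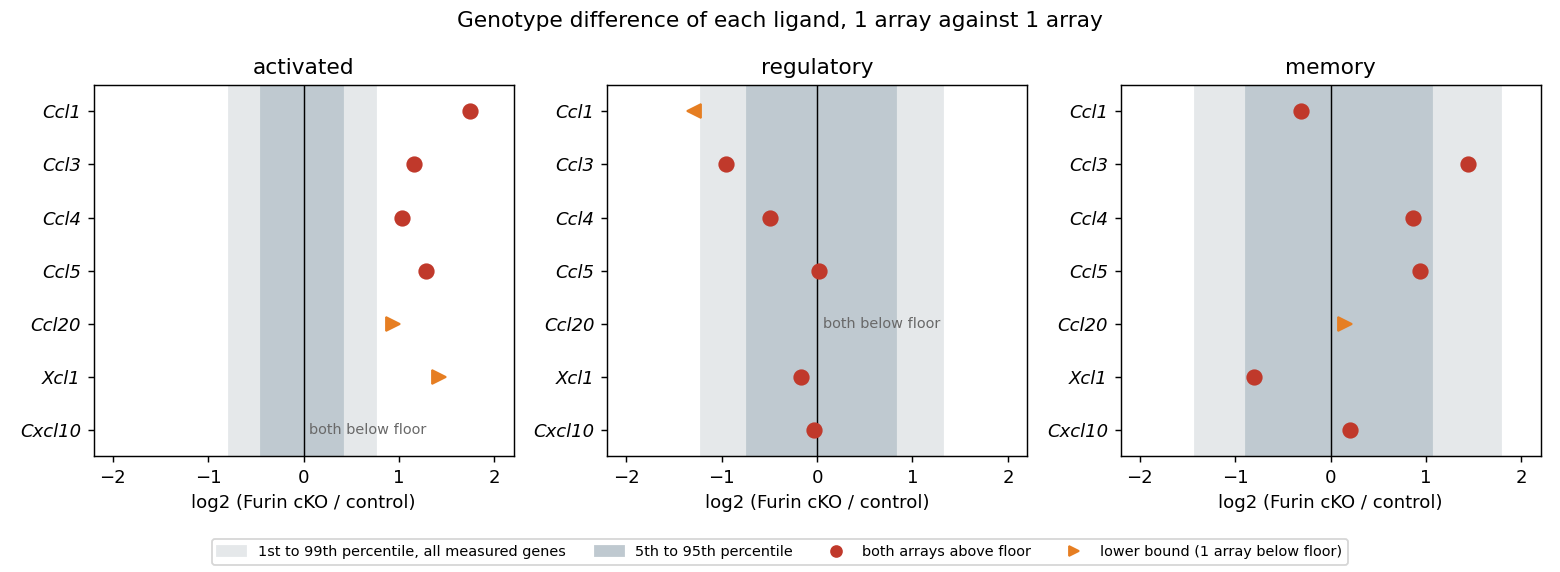
Log2 ratio of the Furin cKO over the control array for each ligand in the 3 populations; grey bands span the 5th to 95th (dark) and 1st to 99th (light) percentiles of all measured genes, and arrowheads are lower bounds. In activated cells the 4 ligands above the floor on both arrays lie beyond the 99th percentile of 0.76. Xcl1 and Ccl20 lie beyond it too, but could only be measured there by being higher. In regulatory cells Ccl1, a bound, lies below the 1st percentile of -1.22. In memory cells all measured ligands lie inside the light band.

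Markers of cells other than CD4 T cells, several of which make chemokines, were also read on the memory arrays. Myeloid and dendritic cell markers summed to 7733 on the array labelled Furin cKO and 15146 on the control array of memory cells, against 2167 and 2062 in regulatory cells, and 10 and 9 of 10 markers were above the floor in memory cells. Siglech, of plasmacytoid dendritic cells, read 1111 and 2943 in memory cells and 95.3 and 66.3 in regulatory cells, and the antigen presentation gene H2-Ab1 read 3246 and 7618 in memory cells. Granulocyte markers summed to 5859 and 630 in memory cells and to 1997 and 1036 in regulatory cells, led by S100a8 (2736 and 259) and S100a9 (2868 and 199) in memory cells, whereas the neutrophil elastase gene Elane read 145 and 87.7. B cell markers summed to 2715 and 1116 in memory cells and to 1444 and 1230 in regulatory cells; NK cell markers to 866 and 654, and to 462 and 452. CD8 T cell markers summed to 697 and 1070 in memory cells and to 896 and 934 in regulatory cells. Within the myeloid and dendritic, NK and CD8 lists single markers went both ways between the memory arrays. On the array labelled Furin cKO, 4 of 4 measured granulocyte, 3 of 3 B cell and 3 of 4 NK cell markers read higher than on the control array, with Eomes lower at 176 and 262. Of 10 myeloid and dendritic cell markers 3 read higher, among them Fcgr1 at 193 and 94.0, and 7 lower. Of the CD8 markers Cd8a read higher, at 264 and 217, and Cd8b1 lower, at 433 and 854. The 3' over 5' ratio of beta-actin was 1.56 on the array labelled Furin cKO and 1.93 on the control array of memory cells, and 1.36 and 1.35 in regulatory cells. The part of these markers and of RNA quality in the ligand values was not tested.

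**Figure D4:**
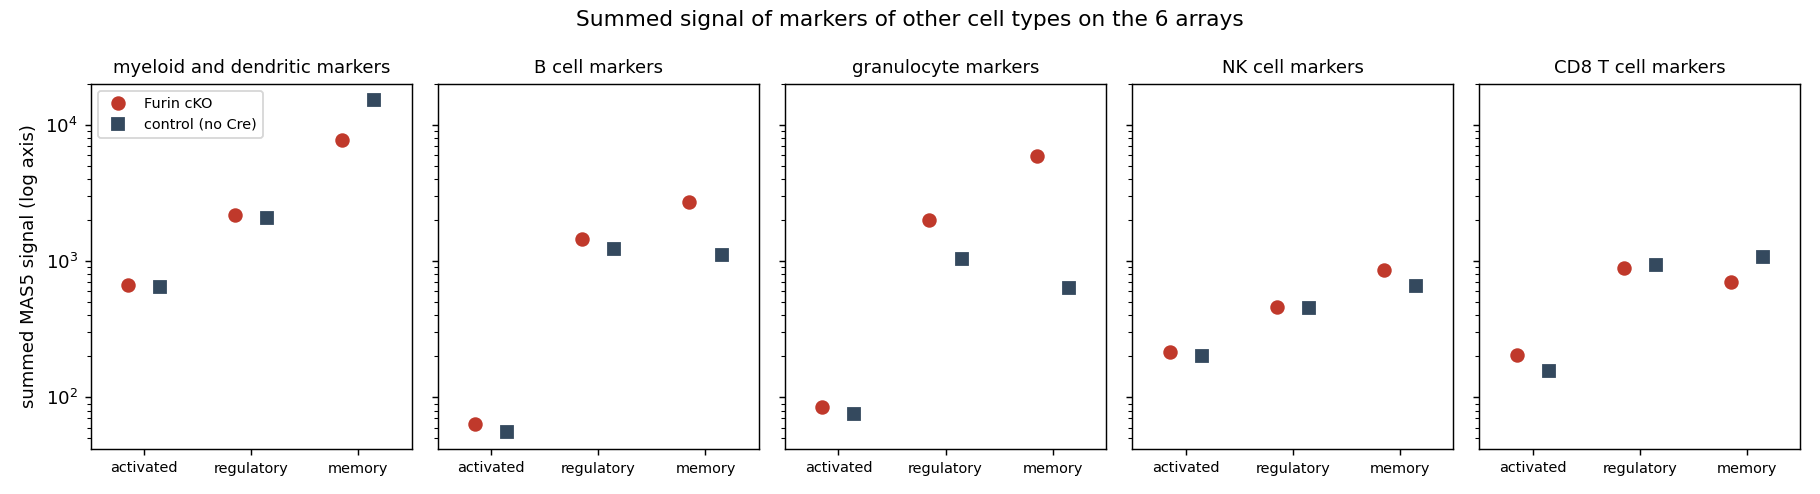
Summed MAS5 signal (log axis) of markers of 5 other cell types, with the Furin cKO array (circle) left of the control array (square) in each population. The activated arrays carried the least of each list, and myeloid and dendritic cell markers reached 15146 on the memory control array.

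Across the 3 populations the genotype term of the model was positive for all 7 ligands and passed for none. Its largest value was 0.75 ± 0.28 for Ccl5 (adjusted p = 0.82), with Ccl3 at 0.55 ± 0.53 and Ccl4 at 0.47 ± 0.35. The terms of Ccl1 (0.05 ± 0.62), Xcl1 (0.15 ± 0.47) and Cxcl10 (0.06 ± 0.12) were smaller than their SE. Ccl20 (0.36 ± 0.23) was below the floor on every control array, so its term could not be negative. The median term of all genes was -0.005. Limma called 0 of 15808 genes (0%), with 450 genes and 0 of the 7 members under 0.05 before adjustment. With the memory labels exchanged Ccl3 and Ccl4 had terms of -0.41 and -0.11. Whether the ratio of a ligand differed between populations could not be tested with 1 array in each group.

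Genes listed as receptors of these ligands were measured on the same arrays. Of 8 listed receptor genes 7 had a probe set, and the remaining gene was not analysed here. Cxcr3, the receptor of Cxcl10, read 257 and 230 on the Furin cKO and control arrays of activated cells, 7545 and 8834 in regulatory cells, and 27796 and 21121 in memory cells, the same order as Cxcl10 itself. It was 99.7-fold lower in activated than in memory cells (adjusted p = 0.00167) and 33.6-fold lower than in regulatory cells (adjusted p = 0.00175). Ccr4, a receptor of Th2 and regulatory cells not tied here to any of the 7 ligands, was lower in activated cells in both comparisons. The limma differences were 3.49-fold against memory and 4.76-fold against regulatory cells (adjusted p = 0.0385 and 0.0213). Ccr1, which binds Ccl3 and Ccl5, was below the floor on both activated arrays and at least 2.35-fold lower than in regulatory cells (adjusted p = 0.0152), as was Ccr3 at at least 4.92-fold (adjusted p = 0.00207). Ccr6, the receptor of Ccl20, read 828 and 1084 in activated cells and 1565 and 1700 in regulatory cells, 1.72-fold lower in activated cells (adjusted p = 0.0405). Ccr8, the receptor of Ccl1, lay between 174 and 274 on all 6 arrays. Xcr1, the receptor of Xcl1, was above the floor on 1 memory and 1 regulatory array, at 62.7 and 64.5. Altogether 0 of the 7 receptors were called higher and 2, Cxcr3 and Ccr4, called lower in activated than in memory cells. Against regulatory cells 5 were called lower. Of all genes 17.4% were called higher and 27% lower against memory cells, and 18.1% and 26.5% against regulatory cells. Between genotypes, Ccr4 in memory cells (343 and 170) was the only receptor past 2-fold, where 9.26% of all measured genes of that pair were.

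Other chemokine ligands, 28 of 31 listed having a probe set, gave dim signals. The highest of any array was 411, for Ccl6 in regulatory control cells; 5 of the 28 were above the floor on all arrays and 3 on none. The 3 with the highest mean were Cxcl1, a neutrophil-attracting ligand (61.9 and 99.4 on the Furin cKO and control arrays of activated cells, 305 and 252 in memory cells), Cxcl16, the ligand of Cxcr6 (99.5 and 67.7, and 160 and 121), and Ccl6, a myeloid ligand (2.0 and 2.2, and 157 and 102). Of 25 tested, 0 were called higher and 6 called lower in activated than in memory cells. Against regulatory cells 2 were called higher and 4 called lower. The shares of all genes were 17.4% higher and 27% lower against memory cells, and 18.1% and 26.5% against regulatory cells. Between the activated genotypes 8 of 12 measured read higher and 4 lower, with a median log2 ratio of 0.30 and 0 past 2-fold; in memory cells 2 of 20 were at least 2-fold higher (Cxcl11 and Pf4) and 2 lower (Ccl28 and Cx3cl1), each against an array below the floor and named after their values were seen. In regulatory cells 0 of 20 were past 2-fold. Of all measured genes 0.762% were past 2-fold in activated, 9.26% in memory and 5.26% in regulatory cells.

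Cytokine and regulator genes that T cells are known to use alongside these ligands were read on the same arrays. In activated cells 3 of 8 were at least 2-fold higher with Furin cKO and 0 lower: the interferon-gamma gene Ifng (1695 and 257), Csf2 (1163 and 562), which encodes GM-CSF, and Il3 (552 and 265), a haematopoietic growth factor. In memory cells 2 of 7 were, namely Ifng (4675 and 1114) and Il2 (1465 and 424), and in regulatory cells 0 of 7. Of all measured genes 0.39% were at least 2-fold higher in activated, 5.62% in memory and 3.14% in regulatory cells. Against memory cells, activated cells had 4 of the 8 called higher (Tnf, Csf2, Il2 and Il3) and 2 called lower, the transcription factors Tbx21 and Runx3. Of all genes 17.4% were called higher and 27% lower in this comparison. Tnf, Tbx21 and Runx3 are named after their values were seen. Of the interferon-induced genes set beside Cxcl10, 4 of 7 were called lower in activated than in memory cells and 1 was called higher. The shares of all genes were 27% lower and 17.4% higher. From this list 3 genes are named here after their values were seen. Irf7, which amplifies type I interferon signals, read 49.9 and 72.3 on the Furin cKO and control arrays of activated cells and 1829 and 2529 on those of memory cells, and Ifit3 read 38.4 and 59.7 against 964 and 930. Gbp2, an interferon-induced GTPase, went the other way at 14181 and 11659 in activated cells against 5604 and 3206 in memory cells, so that Cxcl10 did not share its order with every gene of the list. Only Cxcl11 of this list, in memory cells, was past 2-fold between genotypes, where 9.26% of all measured genes of that pair were.

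Genes whose profile over the 6 arrays was most like that of each ligand were found among 7222 genes with at least a 2-fold range and a signal at or above the 60th percentile on some array. The correlation is dominated by the 3 populations, each of which gives 2 arrays, and it is given as a description. Ccl3 was most like Maff (Pearson r 0.9987), a small Maf transcription factor, and Crtam (0.998), an adhesion molecule of activated T cells; Ccl4 was most like Ier3 (0.994), an immediate early gene, and Commd9 (0.993). Ccl5 was most like Vti1b (0.999), a SNARE of vesicle fusion, and Tatdn2 (0.996), and Cxcl10 was most like Myo1f (0.9997), a myosin of haematopoietic cells, and Cd3d (0.999), a chain of the T cell receptor complex. Ccl1 was most like Sema7a (0.98), a semaphorin, and Pnmt (0.922); Xcl1 like Zfp629 (0.995) and Nedd4 (0.987), a ubiquitin ligase; and Ccl20 like Efcab7 (0.891) and the chemokine gene Ccl9 (0.883). Ccl9 itself read 220 and 115 on the Furin cKO and control arrays of activated cells and 152 and 92.6 in memory cells.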

How the data were processed

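The values are the authors' deposited array intensities on a linear scale, from the MAS5 algorithm, as listed in the submitters' processing notes (version not given in the sources used here). Each array's mean after trimming 2% of probe sets at each end was 500. Of 45101 probe sets, 64 were controls, and 34945 others carried 1 gene symbol in the platform annotation, 932 several and 9160 none. For each gene the probe set of highest mean log2 signal was kept. Signals under the 40th percentile (47.6) were raised to it. Population differences were tested with limma 3.58.1 in R 4.3.3 (lmFit, eBayes, Benjamini-Hochberg) over 15808 genes at or above the floor on some array. On simulated arrays this model recovered 92% of 4-fold changes (log2 2) between activated and regulatory cells, and 26% of 2-fold ones (log2 1), over 15808 genes. Genotype ratios had no test and were called past 2-fold. For arrays, their number limits the precision. Named genes were the 7 members; receptors; brightest or 2-fold changed genes of lists; and the 2 genes most like each member. Members and lists were chosen with earlier results of these data known. Alternatives were other floors, quantile and cyclic loess scaling, the mean of probe sets, no filter, an intensity trend, no genotype term, and left-out arrays. The promoter sequences are from RefSeq (GRCm38.p6), cut to the 250 bases before each start.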

Additional observations from a re-analysis of the deposited data

Results flagged for a closer look

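Ccl1 was singled out because its genotype ratio went opposite ways in 2 populations. The log2 ratio of Furin cKO over control was 1.74 in activated cells, where the arrays read 193 and 57.7, and -1.29 in regulatory cells, where they read 12.3 and 117 and the ratio is a bound set by the floor. The difference between the populations was not tested. With the floor at the 60th percentile the activated ratio was 0.42, and with a floor of each array the regulatory ratio was -0.82.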

How the results depend on the processing

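No paired analysis was possible because the labels give no replicate numbers and each group was 1 array. In activated cells, 5 ligands were at least 2-fold higher, and 3 after raising the floor to the 60th percentile, while all other alternatives gave 5 or 6. The 5 were not the same throughout: with quantile normalization Ccl4 was short of 2-fold (log2 ratio 0.936) and Ccl20 passed (1.501). In memory cells the count of 1 became 2 with a 20th percentile floor and with quantile normalization. In regulatory cells the count of 1 became 2 with a 20th percentile floor, and 0 with a 60th percentile floor or one of each array. Fewer signals above a higher floor is the construction of these settings. Over all genes the counts past 2-fold under these lower and higher floors were 924 and 27 in activated cells (82 as reported), 3145 and 78 in regulatory cells (767), and 3709 and 483 in memory cells (1318). With cyclic loess, the mean of probe sets and a floor of each array they were 191, 44 and 217 in activated cells and 420, 438 and 402 in regulatory cells, and with the mean of probe sets 841 in memory cells. Of 4 ligands called in activated minus memory cells, 2 were called with no filter on low signals, where all genes gave 5261 calls against 7013. The count was 6 of 6 measured with a 60th percentile floor, and 5 with cyclic loess and with an intensity trend. Over all genes these settings gave 6471, 6814 and 7266 calls. When each array was left out, the log2 differences of the 4 ligands called with all arrays kept their direction. They ran from 3.81 to 5.15 for Ccl3, from -6.81 to -6.00 for Ccl5, from -4.95 to -3.04 for Xcl1 and from -3.98 to -3.77 for Cxcl10. Of 4 called in activated minus regulatory cells, from 0 to 2 were when each array was left out, with 0 to 5975 genes against 7063. In regulatory minus memory cells the count of 0 became 2 with a 60th percentile floor, with an intensity trend and with no genotype term, where all genes gave 453, 169 and 655; they gave 34 with the mean of probe sets and 61 with genes above, not at, the floor, and otherwise 0. The share of calls that were higher was 39.1% in activated minus memory cells (2745 higher and 4268 lower) and 51.7% and 52.7% with quantile and cyclic loess scaling, and 40.6% in activated minus regulatory cells against 55.3% and 56.5%. With these scalings the median log2 difference of all genes in both comparisons was 0, and the called ligands kept their direction. The genotype term called 0 ligands under every alternative run. The floor of each array, the exchanged memory labels, the memory arrays left out of activated minus regulatory cells and the filter above the floor were added after seeing the data. Where no construction is named, the cause was not tested. Differences among signals near the floor, such as those of Ccl20, could not be resolved.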
